A study of Arabidopsis thaliana with 4 samples.

Results

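The genes ALD1 (AT2G13810, probe set 265658_at), FMO1 (AT1G19250, 256012_at) and UGT76B1 (AT3G11340, 256252_at), belong to N-hydroxypipecolic acid metabolism and were followed in Arabidopsis rosette leaves carrying whitefly nymphs. They were selected by probe set ID, as 3 of the 22746 probe sets for plant transcripts on the Affymetrix ATH1 array, a short-oligonucleotide expression array. Plants of ecotype Columbia, grown with 8 h of light per day, were 21 days old when 100 adult silverleaf whiteflies (Bemisia tabaci type B, a phloem-feeding insect) were released on each infested plant. The adults were removed after 7 days, and leaves were collected at day 28, from plants then 7 weeks old, together with developmentally matched leaves of uninfested plants. There were 2 arrays per group, each hybridized with RNA of 20 plants pooled from 2 replicate experiments, so the spread given below is that between pools, and the number of arrays limits the precision.

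N-hydroxypipecolic acid is a lysine-derived metabolite that moves through the plant and is needed for systemic acquired resistance, the state in which leaves distant from a local infection resist pathogens better. The aminotransferase ALD1 removes the alpha-amino group of lysine, the reductase SARD4 turns the cyclic product into pipecolic acid, and the flavin-dependent monooxygenase FMO1 adds the hydroxyl group to the ring nitrogen. The glucosyltransferase UGT76B1 attaches glucose to N-hydroxypipecolic acid, which removes it from the active pool, and also accepts salicylic acid and isoleucic acid. Salicylic acid and N-hydroxypipecolic acid are known to act together in this immune response.

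All 3 transcripts were higher in infested leaves. ALD1, the first enzyme, rose 2.99-fold on signal + 16, and UGT76B1, the sugar-attaching enzyme, rose 7.20-fold. FMO1, the hydroxylase, was at the level of absent transcripts, defined below, on both uninfested arrays. Against that level, and without an added constant, its mean on the infested arrays was at least 8.05-fold higher. This bound is not on the scale of the folds of ALD1 and UGT76B1. The changes are described below by the place of each enzyme in the pathway, as MAS 5.0 signal, the summary brightness of a probe set on a linear scale, and as differences of log2(signal + 16). Signals of different genes cannot be set against each other on this platform, so only the changes are compared between genes.

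ALD1 had signals of 147.3 on uninfested 1 and 114.8 on uninfested 2, against 483.4 on infested 1 and 365.2 on infested 2. Both infested arrays lay above both uninfested arrays, and all 4 values were above the brightest of 27 control probe sets for Bacillus transcripts (41.7 to 52.1 by array), taken here as the level of an absent transcript. The group means were 131.1 ± 23.0 (SD, n = 2) and 424.3 ± 83.6, and the ratio of an infested to an uninfested array ran from 2.48 to 4.21. The log2 change was 1.58 ± 0.22 (SE; 95% interval 1.02 to 2.13), with a limma adjusted p of 0.0360 over 13648 probe sets tested. The change was 1.61 in the pair of arrays numbered 1 and 1.54 in the pair numbered 2. It ranked 225th of the 13648 from the highest rise down.

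FMO1 read 10.8 and 7.2 on the uninfested arrays, below the Bacillus ceiling on each, and 382 and 407.5 on infested 1 and infested 2. The uninfested values therefore give an upper bound only, while the infested arrays were close to each other, with a mean of 394.8 ± 18.0 (SD, n = 2). With each uninfested array set to its own control ceiling and no constant added, the infested level, averaged on the log2 scale, was at least 8.05-fold higher. The fold computed from the readings themselves depends on the constant added before taking logs. It was 16.5 with 16, 40.2 with 1 and 6.28 with 64.

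The pattern of a transcript at or below the control ceiling on both uninfested arrays and above it on both infested arrays was shared by 302 of the 22746 probe sets. The opposite pattern was found in 170.

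FMO1 was not tested in the main comparison, because its mean log2(signal + 16) of 6.66 over the 4 arrays was under the limit of 7.04 that removed the dimmest 40% of probe sets. Of the 3 genes, 2 were thus tested. With every probe set tested, FMO1 had the fourth smallest limma p of 22746 (unadjusted p = 1.23e-05, adjusted p = 0.0569). That p and its rank use uninfested readings under the control ceiling and are given as a description. In this fit 0 probe sets (0%) passed, against 2453 higher and 2203 lower at an unadjusted p under 0.05. A filter chosen after seeing the data kept the 17860 probe sets above the control ceiling on at least 2 arrays, whichever these were, and called 4.57% of them, or 2.44% higher. There FMO1 had a log2 change of 4.04 ± 0.23 (SE; 95% interval 3.47 to 4.61, limma adjusted p = 0.00800). It entered that test through its 2 infested arrays alone, so that p is given as a description, and the log2 change uses uninfested readings under the control ceiling.

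UGT76B1 had signals of 70.2 on uninfested 1 and 31 on uninfested 2, and of 567.6 on infested 1 and 343.8 on infested 2. The groups did not overlap, but only 1 of the 2 uninfested arrays was above its control ceiling. The means were 50.6 ± 27.7 (SD, n = 2) and 455.7 ± 158, and the array ratios ran from 4.90 to 18.3. The log2 change was 2.85 ± 0.38 (SE; 95% interval 1.90 to 3.79, limma adjusted p = 0.0334), the 32nd largest of 13648. The change was 2.76 in the pair numbered 1 and 2.94 in the pair numbered 2. UGT76B1 passed the filter limit of 7.04 through its infested arrays. Its mean log2(signal + 16) was 5.99 in uninfested and 8.84 in infested leaves, or 7.42 over all 4 arrays. Its p and rank are therefore given as a description. With uninfested 2 raised to its control ceiling, the fold of UGT76B1 was 7.55 without an added constant. From the readings themselves it was 7.20 with 16 added, 9.28 with 1 and 4.49 with 64.

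**Figure D1:**
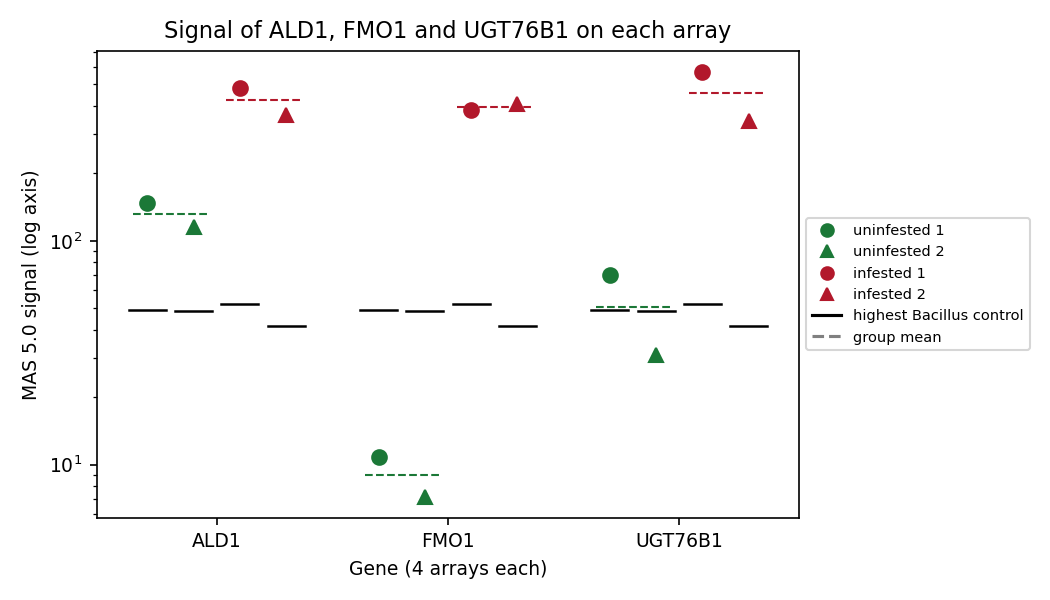
Signal of ALD1, FMO1 and UGT76B1 (log axis) on each of 4 arrays, with circles for replicate 1, triangles for replicate 2, dashed lines for group means and black bars for the highest Bacillus control of that array. All infested values lie between 343.8 and 567.6, and FMO1 on both uninfested arrays and UGT76B1 on uninfested 2 lie under the bars.

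The calls of ALD1 and UGT76B1 were made where limma called 2.83% of probe sets higher and 5.37% in either direction. That of UGT76B1 is a description, because the gene passed the filter through its infested arrays. Having both infested arrays above both uninfested ones was common, at 29.3% of all 22746 probe sets. Both genes were also called without infested 1 (limma adjusted p = 0.00477 and 0.00415) and without infested 2 (0.00641 and 0.00610), where 15.1% and 4.67% of probe sets were called higher. In these fits the lone infested array is assumed to vary like the uninfested pair, which supplies all of the spread. The calls were lost without uninfested 1 (0.193 and 0.107) and without uninfested 2 (0.216 and 0.169), fits in which limma called 0 probe sets higher (827 and 978 at an unadjusted p under 0.05). An exact two-sided permutation test of 2 arrays against 2 gave p = 0.333 for each gene, the smallest it can give.

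**Figure D2:**
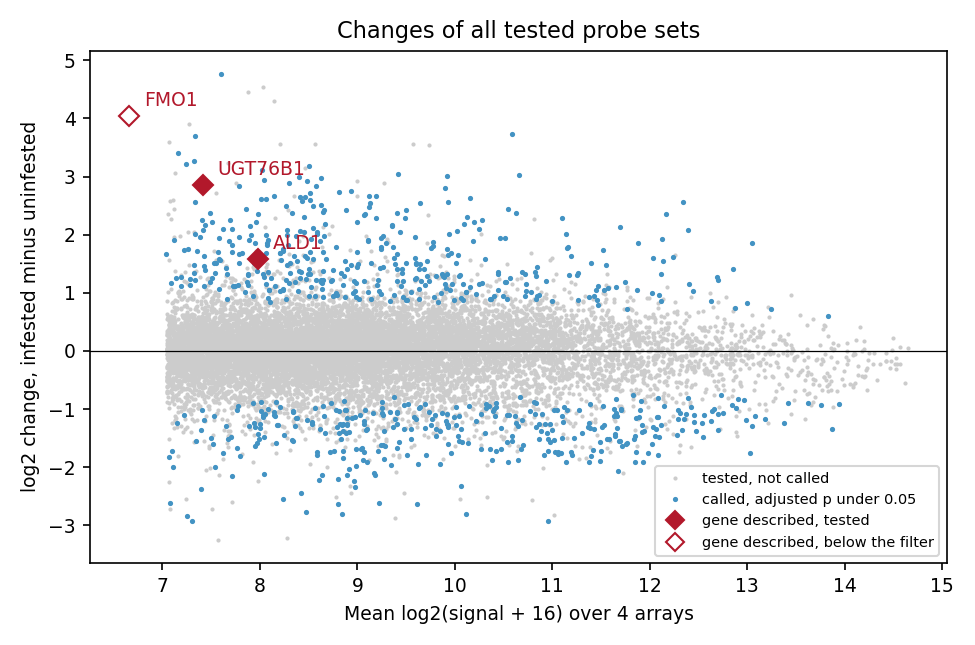
log2 change (infested minus uninfested) against mean log2(signal + 16) for the 13648 tested probe sets, with called ones in blue and the 3 genes as diamonds. ALD1 and UGT76B1 are filled and called at 1.58 and 2.85, and FMO1 is open at 4.04, to the left of the filter limit at 7.04.

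By value, ALD1 changed least. Its 4 array ratios (2.48 to 4.21) lay below those of UGT76B1, whose lowest, 4.90, came from the uninfested array above the ceiling, and below the bound of 8.05-fold for FMO1. On the log2 scale the change of UGT76B1 exceeded that of ALD1 by 1.27. The exact permutation p of this difference was 0.333, the smallest possible, so the order was not shown by a test. No order can be given for FMO1 and UGT76B1, whose folds against the ceiling were at least 8.05 and 7.55.

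The genes also differed in how the replicates lay. On the uninfested arrays, all 3 read higher on replicate 1, by 1.28 times for ALD1, 1.5 for FMO1 and 2.26 for UGT76B1. On the infested arrays, ALD1 and UGT76B1 again read higher on replicate 1, by 1.32 and 1.65 times, while the ratio for FMO1 was 0.937. Infested 2 stood apart from the other arrays, where 33 probe sets exceeded all other arrays by 8-fold or more on signal + 16, against 0 such probe sets on each other array. Without it the log2 changes were 1.77 for ALD1, 4.00 for FMO1 and 3.20 for UGT76B1. Without infested 1 they were 1.38, 4.09 and 2.50.

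**Figure D3:**
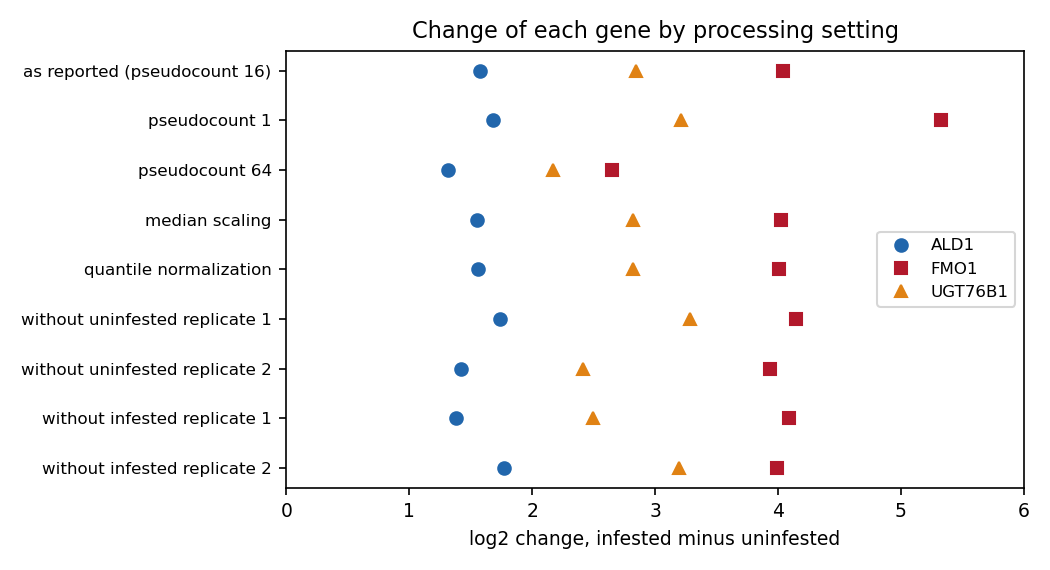
log2 change (infested minus uninfested) of ALD1, FMO1 and UGT76B1 under the reported setting and 8 others. The added constant moved FMO1 from 2.65 (64) to 5.33 (1), while ALD1 stayed between 1.32 and 1.77.

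SARD4 (AT5G52810, which the RefSeq table lists without a symbol), the reductase that acts between ALD1 and FMO1, had signals of 565.6 and 420.3 in uninfested and 943.9 and 1096.8 in infested leaves. Its groups did not overlap, and its log2 change was 1.04 ± 0.21 (SE). It missed the threshold narrowly (limma adjusted p = 0.0519) and passed with the replicate number of the arrays as a block (0.0115). The 4 genes of the pathway thus all had both infested arrays above both uninfested ones, as had 29.3% of all probe sets. Of the 3 tested ones 2 were called, where 2.83% of tested probe sets were called higher and 5.37% in either direction. With the block 3 of 3 were called, where 9.19% were called higher and 19.5% in either direction. UGT76B1, included in both counts, passed the filter through its infested arrays, so the counts are a description.

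Upstream of ALD1, 2 of 10 genes of lysine synthesis and breakdown had a named probe set. LKR/SDH (AT4G33150), the bifunctional enzyme that opens the competing route of lysine breakdown through saccharopine, read 148.4 and 170.9 in uninfested and 303.1 and 308.2 in infested leaves. Its log2 change of 0.88 ± 0.18 (SE) did not pass (limma adjusted p = 0.0522), and it passed with the block (0.0230). The diaminopimelate epimerase gene AT3G53580, of lysine synthesis, had a log2 change of -0.41 (adjusted p = 0.251).

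UGT76B1 was, by value, the only one of 5 tested members of its subfamily to be higher in infested leaves. This depends on the filter, which UGT76B1 itself passed through its infested arrays. Of the 12 other members, 5 were higher by value, each of them untested, and 7 were lower. All 13 genes of the UGT76 glucosyltransferases had a probe set, and 3 of them were at or below the control ceiling on all 4 arrays. Of the 5 tested, UGT76B1 was called and the other 4 had log2 changes from -0.94 to -0.08. UGT76C2, which glucosylates cytokinins, had signals of 382.9 and 522.5 in uninfested and 245.1 and 207.2 in infested leaves. Its log2 change was -0.94 ± 0.21 (SE; limma adjusted p = 0.0636, or 0.0222 with the block).

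Among the 8 untested members of the subfamily, UGT76E12 had the highest log2 change by value. It read 34.7 and 21.5 on the uninfested arrays, under the control ceiling on both, and 82 and 139.9 on the infested ones, above it. UGT76E2 read 10.6 and 19.9 against 34.7 and 55.9, and 3 of its 4 values were at or below the ceiling. UGT76D1, whose enzyme glucosylates dihydroxybenzoic acids made from salicylic acid, had 74.2 and 67.2 against 79.5 and 69.4. The median log2 change of the 5 tested members was -0.46, beside 0.04 for all tested probe sets.

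FMO1 had few named relatives among the flavin-containing monooxygenases. Of 11 genes in this list, 4 had a probe set paired with them, FMO1 and 3 of the YUCCA genes of auxin synthesis. YUC2 was tested and had a log2 change of 0.34 ± 0.18 (SE; limma adjusted p = 0.287). YUC4 and YUC6 were at or below the control ceiling on all 4 arrays.

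Genes that control or accompany the pathway were named in small number. Of 23 regulators, SAG101, a partner of EDS1 in immune signalling, was the single named one, and it rose by a log2 of 1.07 ± 0.16 (SE; limma adjusted p = 0.0378). Of 8 genes of lipid and transfer-protein signals in systemic acquired resistance, 2 were tested. AZI3 (AT4G12490), a lipid transfer protein gene of the AZI1 group, rose from 274 and 351 in uninfested to 1150.4 and 1060.9 in infested leaves, with a log2 change of 1.78 ± 0.19 (SE; limma adjusted p = 0.0289). The lectin gene LLP1 (AT5G03350) had a log2 change of -0.20 (adjusted p = 0.488).

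Of 10 genes of salicylate synthesis and conversion, 2 were named and neither was tested. BSMT1, which methylates salicylic and benzoic acid, read 22 and 65.9 in uninfested and 258.9 and 134 in infested leaves. UGT74F1, a salicylate glucosyltransferase, was at or below the control ceiling on all 4 arrays (5.8 to 10.7). Of 5 output genes of systemic acquired resistance, the 2 named ones, GRX480 and CHI, rose by log2 values of 1.95 and 3.73. GRX480 passed narrowly (limma adjusted p = 0.0488).

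Over all of these lists 15 genes were tested and 6 were called, all higher: ALD1, UGT76B1, SAG101, AZI3, GRX480 and CHI. Apart from ALD1 and UGT76B1, this was 4 of 13, beside 5.37% of all tested probe sets. The lists were drawn up with earlier results of these arrays known, so the count describes them only. With the block, 9 of the 15 were called, beside 19.5% of all tested probe sets, and 1 of the 9, UGT76C2, was lower.

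**Figure D4:**
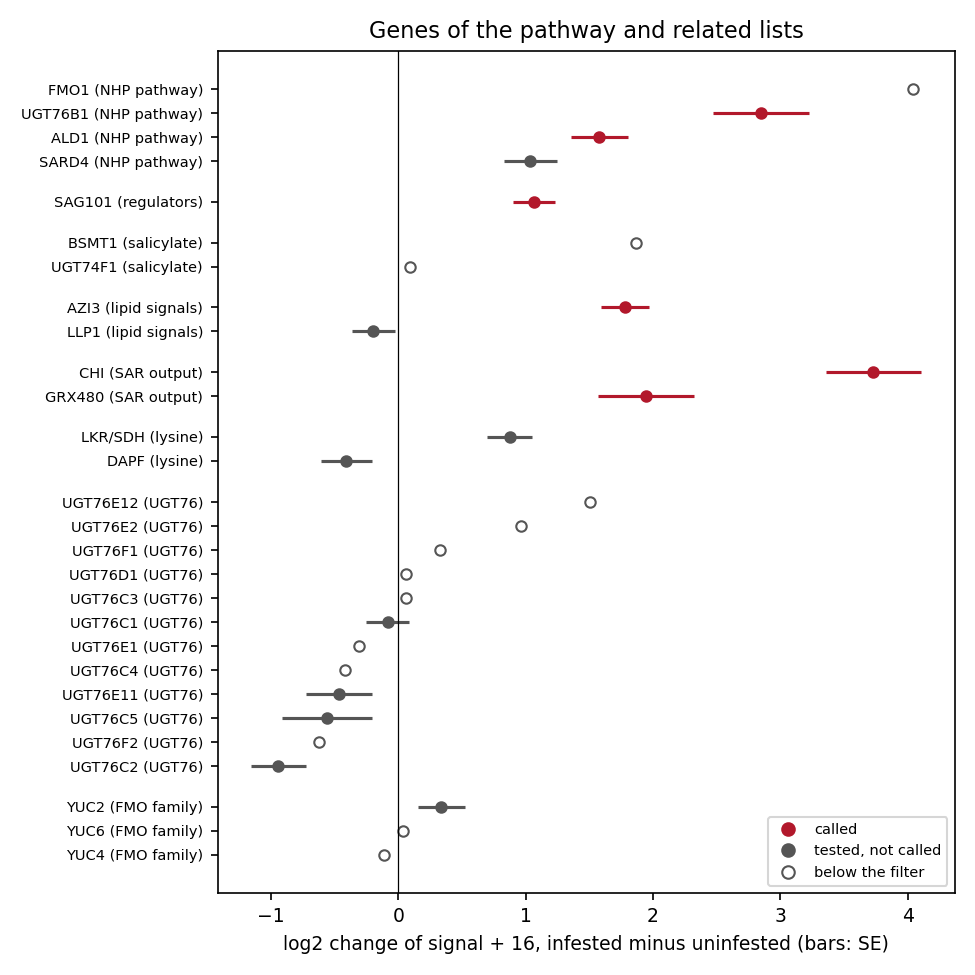
log2 change on signal + 16 (infested minus uninfested; bars, SE of the limma fit) of the named genes of the N-hydroxypipecolate (NHP) pathway and related lists, where SAR stands for systemic acquired resistance. Red points were called, grey points were tested without a call, and open points were below the filter. FMO1 lies at 4.04, and the lowest of the UGT76 genes, UGT76C2, at -0.94.

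The named genes with profiles closest to each of the 3 were found by the root mean square difference of centred log2(signal + 16) over the 4 arrays. For ALD1 these were RING1, a RING-type ubiquitin ligase gene (0.140), AT5G17760 (0.149) and AT2G39710 (0.163). RING1 read 2788.9 and 2433.4 in uninfested and 7715.4 and 7636 in infested leaves. As many as 2 probe sets without a single gene name were closer.

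For FMO1, whose profile includes 2 readings under the control ceiling, the nearest named genes were the chitinase gene CHI (0.365), the calmodulin-like gene CML41 (0.498) and AT3G13610, a gene of the scopoletin pathway (0.564). For UGT76B1 they were the alpha-amylase gene AMY1 (0.191), CML41 (0.425) and the cation exchanger gene CHX16 (0.456). Closer than the last of these were 3 probe sets without a single gene name for FMO1 and 8 for UGT76B1. AMY1 read 147.2 and 104.9 in uninfested and 1057.1 and 710.5 in infested leaves, with replicate 1 higher in both groups, as for UGT76B1. Of the 9 places, 8 were filled by profiles with a limma adjusted p of at most 0.0371, and CHX16 had 0.0560. The profiles were chosen on these same arrays for lying close to genes that rose. Their small p is therefore part of the choice and no support. The distance from ALD1 was 0.673 to UGT76B1 and 1.24 to FMO1, and that between FMO1 and UGT76B1 was 0.699, so each had other genes closer to it than the other 2.

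Leaf identity and RNA quality were checked once for all values. RCA, for Rubisco activase, had 19523.2 and 21392.2 in uninfested and 19115.2 and 17614.3 in infested leaves. The other named mesophyll marker, LHCB4.3 of the photosystem II antenna, fell from 2045.1 and 1818 to 273 and 326.3 (log2 change -2.63, limma adjusted p = 0.0278). Of the guard cell markers, AT1G22690 (GC1) fell by a log2 of 0.98 (limma adjusted p = 0.0411) and FMA had -0.36 (0.386). The summed signal of the 2 named mesophyll markers of 6 was 21568.3 and 23210.2 against 19388.2 and 17940.6, most of it from RCA, and that of the 2 named guard cell markers of 4 was 2094.1 and 1994.6 against 1193.7 and 1018.1, with 0 of these 4 markers at the control ceiling. In whole leaves, fewer cells of a type and less RNA per cell cannot be told apart. The 3' to 5' signal ratio of one actin control pair was 2.70 and 3.88 in uninfested and 5.70 and 6.56 in infested leaves, while that of another was 1.43 and 1.42 against 1.31 and 1.43. The part of these differences in the changes of ALD1, FMO1 and UGT76B1 was not tested. Markers of phloem, root, flower and senescing leaf were not analysed by name. Median signals of the 4 arrays lay between 185.3 and 205.2.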

How the data were processed

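RNA of 2 uninfested and 2 infested leaf pools was measured on 1-colour arrays, grouped by sample title. The authors deposited linear signal intensity from MAS 5.0, run with its standard parameters per the series text; the version is not given in the sources used here. The mean signal after trimming 2% at each end was 500.0 on every array, so the values had been scaled alike. No detection calls were used.

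From these, 64 control probe sets were removed, log2(signal + 16) was taken, and probe sets under the 40th percentile of the mean were not tested (9098 of 22746). The rest were fitted with limma 3.58.1 in R 4.3.3 (lmFit, eBayes with a variance trend, Benjamini-Hochberg adjustment, called at an adjusted p under 0.05). The fit was tested on simulated data. With no detection calls, the brightest Bacillus control of an array stood for the background in bounds.

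ALD1 and FMO1 were paired with their probe sets by the selection rule; the other names come from the platform annotation and the RefSeq table of TAIR10.1. Of 110 listed loci, 32 had a probe set, ALD1 and FMO1 by the selection rule and the others as the 1 gene annotated to it. Named genes were the 3 genes, the tested list genes, and the 3 nearest named profiles of each; untested list genes were named after their values were seen, as descriptions. The genes and lists were chosen with earlier results of these data known.

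Both groups have arrays numbered 1 and 2. The series text describes 2 sets of matched infested and control pools, and the number was read as that of the set. The titles do not state this, so blocked values stand as an alternative beside the unblocked ones. Deviations of same-numbered arrays correlated at 0.264 across tested probe sets. Alternatives covered the added constant, filter, scaling, variance trend, block and each array left out.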

Additional observations from a re-analysis of the deposited data

How the results depend on the processing

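All 3 genes stayed higher in infested leaves under every setting run. For the added constants and omitted arrays this was fixed, since both infested values of each gene exceeded both uninfested ones. The filter, block and variance trend do not alter the log2 change itself. Median scaling, quantile normalization, the block and a fit without a variance trend kept ALD1 and UGT76B1 called. In these fits UGT76B1 passed the filter through its infested arrays, so its calls are a description, not support. With every probe set tested, ALD1 (log2 change 1.58, limma adjusted p = 0.0797) and UGT76B1 (2.85, 0.0767) lost their calls, and 0 of the 3 genes, 0 list genes and 0 probe sets in either direction passed. A filter at the 60th percentile removed all 3 genes, so 0 were called there. The constant moved UGT76B1 from 4.49-fold (64) to 9.28-fold (1). FMO1 had 5.33 with an added constant of 1, untested, and 2.65 with 64, where it was tested and passed (limma adjusted p = 0.0140). There too it passed the filter through its infested arrays, so that p is a description, not support. With the control-ceiling filter added later, which it entered through its infested arrays alone, it passed without and with the block (4.04); this is a description, not support. Leaving out each array in turn gave 1.38 to 1.77 for ALD1, 2.41 to 3.29 for UGT76B1 and 3.94 to 4.15 for FMO1, with 0 to 2 of the 3 genes and 0 to 11 list genes called (6 with all arrays), and 0 to 2065 probe sets higher and 0 to 2487 lower. Without uninfested 1 or uninfested 2, all these counts were 0 (827 and 978 higher, 804 and 948 lower, at an unadjusted p under 0.05). Against 386 higher and 347 lower probe sets in the reported fit, the block gave 1254 and 1403, the block with the added filter 1351 and 1497 with 12 list genes, median scaling 342 and 589, and no variance trend 277 and 199. The replicate block changed no call of ALD1 or UGT76B1 (limma adjusted p = 0.00237 and 0.000685), that of UGT76B1 being a description here too. Readings near the Bacillus ceiling limit the folds of FMO1 and UGT76B1.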
